A study of Homo sapiens with 4 samples.

Results

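The genes described here are those with a well detected transcript whose level lay at least 1 lower on the log2 scale, that is at least 2-fold, in the PKP3 knockdown clone than in the vector control. A probe was taken when it carried a gene symbol, was called well above background by the scanner software on all 4 arrays, and lay at least 1 below the vec mean on each shpkp3-2 array. Keratin, claudin and integrin names were left out, as were PKP3 and 7 other names. By this rule 80 probes of 72 genes were taken, which is 0.374% of the 21392 probes (of 13911 symbols) that bore a symbol and were well above background on all 4 arrays. Without the rules on names, 120 of the 28883 probes detected on all 4 arrays (0.415%) lay that far below vec, and the array held 50238 probes that were not controls. Since the members were chosen by the measured difference between the clones on these arrays, their levels and differences are a description and were not tested.

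Plakophilin 3 (PKP3) is an armadillo repeat protein of the desmosome, the junction that ties the keratin filaments of neighbouring epithelial cells together. Plakophilins are also found outside the junction, where they have been linked to RNA binding and to signalling. A stable shRNA clone is grown from a single transfected cell, so that the knockdown and what set that founder cell apart cannot be told apart.

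HCT116 is an established cell line derived from a colorectal carcinoma. Both clones came from HCT116 cells by stable transfection, the vec clone with the vector control and the shpkp3-2 clone with a plasmid encoding an shRNA against PKP3, and the sample labels name selection in 5 μg/ml puromycin while the methods name blasticidin for these clones. Cy3 labeled RNA was hybridized to 4 single color arrays, 2 per clone, where vec 1 and shpkp3-2 1 came from one RNA collection and vec 2 and shpkp3-2 2 from another. Each side of the comparison was 1 clone, so that the spread between arrays is that between RNA collections of a clone, all arrays lay on 1 slide, and clone and position on the slide cannot be told apart.

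The deposited intensities of an array summed to between 115635392 and 130032824, between 60.5% and 63.5% of spots were well above background, and no spot was saturated. All levels below are the log2 processed signal minus the 75th percentile of the array, so that 0 is the signal at that percentile, brightness depends on the probe as well as on the transcript, and a difference of -1 is a 2-fold lower signal. On this scale PKP3 itself was at 5.39 and 5.91 in vec 1 and vec 2 and at 3.17 and 3.04 in shpkp3-2 1 and shpkp3-2 2, which is 17.2% of the vec level. Of 15 markers of colon epithelium 10 were detected on all 4 arrays and 4 on none (CDX1, CDH17, CEACAM5 and CEACAM6). In RNA of whole cultures, a lower level in every cell and a loss from some of the cells cannot be told apart. EPCAM, an adhesion molecule of simple epithelia, was at 5.92 and 6.21 in vec and at 6.40 and 6.20 in shpkp3-2.

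The probe sequences are shown first, for the genes in which several probes gave different or like answers. Each line holds bases 1 to 30 of a probe of 60 bases, with the strand as the array files give it. No genome of the array's build was at hand, and the probes were not placed on a genome. CEBPA is shown since its brightest probe met the rule while the others did not, VPS4A for the same reason, BDNF since both of its probes met the rule, and RGS2 as a bright member with little spread between arrays.
CEBPA, probe that met the rule: gcccccgcccggctacggctgcgcggccgc
CEBPA, further probe: gccttgtttgtactgtatgccttcagcatt
CEBPA, another further probe: ttttgttttgttttggttttgctcggatac
VPS4A, probe that met the rule: tgcctcaaagaccgagtgacataagccatt
VPS4A, further probe: ggacttgtcaaggtgtttaagcagtaggaa
BDNF, brighter probe that met the rule: aggttcaagaggcttgacatcattggctga
BDNF, dimmer probe that met the rule: taatatgtaaggaatgcttggaatatctgc
RGS2, probe that met the rule: tagatctgggattatgtggccttaggtagc

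Over the 72 genes, with the brightest member probe standing for each, the median difference of shpkp3-2 from vec was -1.32, from -3.13 (UTS2B) to -1.03 (STMN3). Over all probes well above background on all 4 arrays the median difference was 0.05. The fall was at least 1.5 in 23 genes, at least 2 in 12 genes and at least 3 in 1 gene. The vec levels of the members ran from -3.50 to 6.41 with a median of -0.45, beside a median of -0.16 over the symbol-bearing probes detected on all arrays. The SD between the vec arrays had a median of 0.25 for the members and 0.19 for those probes, and that between the shpkp3-2 arrays 0.13 and 0.11.

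In 70 of the 72 genes the clones did not overlap, with the higher shpkp3-2 array below the lower vec array, and 18.5% of the 21392 symbol-bearing probes had this pattern. limma, fitted over the 30512 probes detected in full in 1 clone or both, called 44 probes lower (0.144%) and 75 higher (0.246%) at an adjusted p under 0.05, and 12 of the 72 genes were among the probes called lower. These are UTS2B, HKDC1, FOXA2, SUSD2, GCNT3, RGS2, BDNF, ZFP42, NUPR1, TAPBP, TEX19 and S100A5. When the RNA collection entered the fit as a replicate block, all 72 were called lower, beside 338 of all probes, and this includes GH2, in which the clones overlapped. As the rule used this same contrast, nothing is read from these counts. For 1 gene, 2 arrays against 2 allow no two-sided p below 0.333 in an exact permutation test.

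Within the first RNA collection 67 of the 72 genes were at least 1 lower in shpkp3-2, within the second 49, and within both 44. Of the 21392 symbol-bearing probes, 2.39%, 0.757% and 0.252% were so, and since the members were chosen on this difference nothing is read from these counts. Vec 1 was above vec 2 in 51 of the 72 genes (70.8%), while it was above vec 2 in 45.2% of the symbol-bearing probes. On the brightest member probe, 39 genes lay at least 1 below each single vec array on both shpkp3-2 arrays, as did 0.206% of the symbol-bearing probes.

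**Figure D1:**
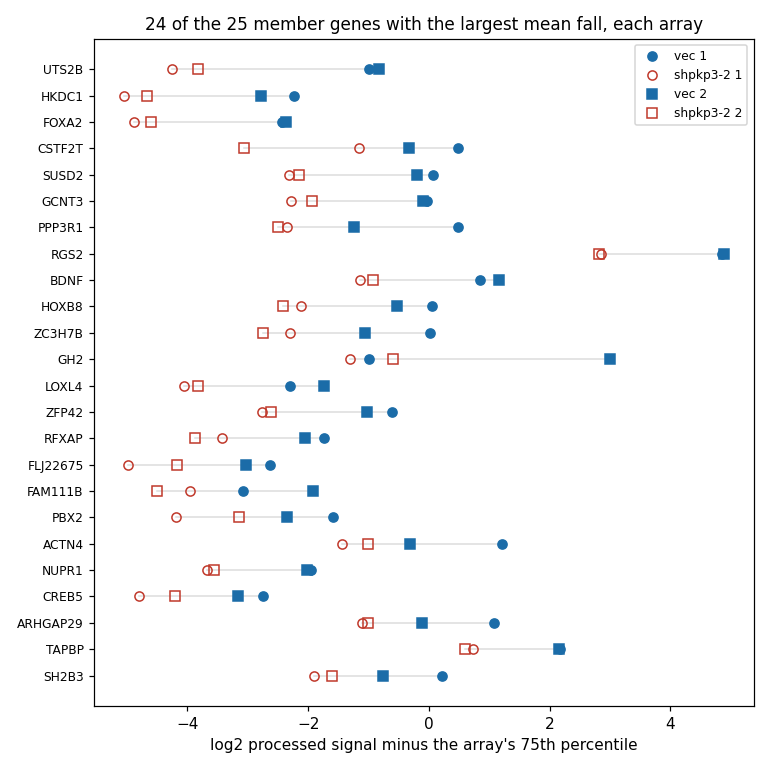
Level on each array (log2 processed signal minus the 75th percentile of the array) of 24 of the 25 member genes with the largest mean fall, vec in filled blue and shpkp3-2 in open red, circles for the first and squares for the second RNA collection. The clones are apart in all of these genes except GH2, in which a single vec array is high.

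Among secreted and matrix proteins, 9 members had differences from -3.13 to -1.31 (median -1.45). UTS2B, which encodes a vasoactive peptide related to urotensin II, was at -0.99 and -0.83 in vec and at -4.26 and -3.83 in shpkp3-2, or 11.4% of the vec level. On the processed signal it had the largest difference of all members. With normexp background correction, which compresses low signals, its difference was -1.56. Several members then differed by more, among them RGS2 (-2.05), BDNF (-1.78) and SUSD2 (-1.66). On the processed signal the gap of UTS2B between the lowest vec and the highest shpkp3-2 array was 2.83. BDNF, a neurotrophin that signals through TrkB, was at 0.84 and 1.16 in vec and at -1.14 and -0.93 in shpkp3-2 (24.4% of vec). The dimmer BDNF probe was at -1.42 and -2.07 in vec and at -4.37 and -4.96 in shpkp3-2, a difference of -2.92. Both BDNF probes thus separated the clones on every array. LOXL4, a lysyl oxidase that cross-links collagen and elastin, was at -2.30 and -1.73 in vec and at -4.06 and -3.83 in shpkp3-2 (difference -1.93). The other LOXL genes tested were not members, and LOXL2 came nearest with a difference of -1.25 ± 0.33 (SE, limma adjusted p = 0.249). It was at 2.69 and 2.29 in vec and at 0.79 and 1.69 in shpkp3-2.

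Growth factors of the Wnt and FGF families were present too. WNT11, a Wnt ligand known for signalling without β-catenin, was at 0.77 and 0.59 in vec and at -0.79 and -0.49 in shpkp3-2 (difference -1.32). A dimmer WNT11 probe differed by -1.0. The 14 other WNT genes tested had a median difference of 0.04, from -0.73 to 0.82. RSPO1, a secreted amplifier of Wnt signalling, was much dimmer, at -3.24 and -3.37 in vec and at -4.62 and -4.81 in shpkp3-2 (difference -1.40). FGF19, the ileal hormone that represses bile acid synthesis, was at -0.39 and -0.54 in vec and at -1.97 and -1.75 in shpkp3-2, and a dimmer probe of it differed by -0.94 against -1.39 for the brighter probe. SPOCK1, a matrix proteoglycan, differed by -1.45.

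GH2, the placental growth hormone, met the rule through 1 array. It was at -0.99 in vec 1 and 3.0 in vec 2 and at -1.31 and -0.59 in shpkp3-2, so that the clones overlapped. Without vec 2 the difference was 0.04, and a dimmer GH2 probe differed by 0.56. The GH2 probe also belongs to a family of near-identical genes, whose transcripts it may not tell apart.

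Transcription factors and chromatin proteins, a group assigned by hand with the results known, had 13 members with differences from -2.34 to -1.11 (median -1.55). FOXA2, a pioneer factor of gut endoderm, was at -2.44 and -2.37 in vec and at -4.89 and -4.61 in shpkp3-2, or 19.7% of vec. Its 2 further probes were not well above background on every array and did not share a direction. One was at -3.10 and -3.28 in vec and below that flag on both shpkp3-2 arrays, and the other was at -5.25 and -5.70 in vec and at -3.76 and -5.08 in shpkp3-2, a difference of 1.05 the other way. The other FOXA genes, both tested, differed by -0.17 and -0.04. HOXB8, a homeobox factor of the posterior body, was at 0.05 and -0.53 in vec and at -2.11 and -2.41 in shpkp3-2 (difference -2.02). The 8 other HOXB genes tested had a median difference of -0.17, from -0.54 to 0.38. ZFP42 (REX1), a zinc finger protein used as a marker of pluripotent cells, was at -0.60 and -1.02 in vec and at -2.76 and -2.62 in shpkp3-2 (difference -1.88). NUPR1, a small stress-induced chromatin protein, was at -1.95 and -2.03 in vec and at -3.67 and -3.56 in shpkp3-2. Its arrays differed by little within each clone (SD 0.06 and 0.08) and by -1.63 between the clones. RFXAP, part of the complex that activates MHC class II promoters, was at -1.73 and -2.05 in vec and at -3.43 and -3.88 in shpkp3-2.

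The clones were less evenly apart in PBX2, a Hox cofactor, which was at -1.58 and -2.35 in vec and at -4.20 and -3.15 in shpkp3-2. Its further probe differed by -0.58. CREB5, a bZIP factor that binds cAMP response elements, was at -2.74 and -3.16 in vec and at -4.79 and -4.20 in shpkp3-2, with a further probe at a difference of -0.40. BCL6, the repressor of the germinal centre programme, was at 2.77 and 2.19 in vec and at 1.19 and 0.98 in shpkp3-2 (38.0% of vec). CREB3L3, GLI2, ZNF354A and NFE2L2 had differences between -1.22 and -1.11. Further probes of CREB3L3 and GLI2 differed by -0.05 and -0.27. With an array left out, the smallest differences of their member probes were -0.78 and -0.69. NFE2L2 encodes the NRF2 factor of the oxidative stress response, and its far brighter further probe, at 3.36 and 3.14 in vec and at 3.03 and 2.85 in shpkp3-2, differed by -0.31 against -1.11 for the member probe.

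CEBPA, a bZIP factor of differentiating epithelial, fat and myeloid cells, had the highest vec level of all members. Its member probe, with 81.7% G and C over its bases, was at 6.88 and 5.93 in vec and at 4.90 and 5.28 in shpkp3-2 (difference -1.31). The further probes, with 48.3% and 43.3% G and C, were at 1.28 and 1.74, and 1.28 and 1.69, in vec and at 1.59 and 1.38, and 1.54 and 1.30, in shpkp3-2, with differences of -0.02 and -0.07. As the sequences above show, the probes read different stretches. They do not give CEBPA one common size of difference.

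Among membrane proteins and enzymes of the cell surface or secretory route, 9 members had differences from -2.17 to -1.18 (median -1.28). SUSD2, a membrane protein with a sushi domain, was at 0.07 and -0.20 in vec and at -2.32 and -2.15 in shpkp3-2, or 22.2% of vec. GCNT3, the enzyme that branches the O-glycans of mucins, was at -0.02 and -0.10 in vec and at -2.29 and -1.94 in shpkp3-2 (24.1% of vec). Both were apart on all arrays by gaps of 1.95 and 1.84. BAMBI, a decoy receptor that dampens TGF-β signalling, was the second brightest member, at 6.07 and 5.34 in vec and at 4.23 and 4.34 in shpkp3-2. Its difference of -1.42 was -1.85 within the first RNA collection and -1.0 within the second. DPP4, a surface dipeptidyl peptidase, DPEP1, a membrane dipeptidase, and ANTXR2, an anthrax toxin receptor that binds matrix, differed by -1.19, -1.21 and -1.21. CEMIP2, a surface hyaluronidase, differed by -1.18, and a far brighter further probe of it by -0.56. The scavenger receptors SCARA5 and SCARF2 each differed by -1.28 on the member probe and by 0.05 and 0.41 on a further probe. The member probe of SCARF2 was at 4.03 and 3.12 in vec and at 2.20 and 2.39 in shpkp3-2. The probes of these receptors did not share a direction.

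Of 7 signalling genes, with differences from -2.05 to -1.27, RGS2 was the most even. RGS2, which speeds up GTP hydrolysis by Gq proteins, was at 4.85 and 4.88 in vec and at 2.85 and 2.81 in shpkp3-2, or 24.4% of vec, with SDs of 0.02 and 0.03. RGS5, of the same family, was at -2.09 and -2.18 in vec and at -3.44 and -3.39 in shpkp3-2 (difference -1.28). The 12 other RGS genes tested had a median difference of 0.04, from -0.53 to 0.45. PPP3R1, the regulatory subunit of the phosphatase calcineurin, was at 0.49 and -1.25 in vec and at -2.36 and -2.50 in shpkp3-2, and a further probe differed by -0.38. ARHGAP29, a GTPase activating protein, was at 1.08 and -0.11 in vec and at -1.11 and -1.01 in shpkp3-2 (difference -1.54). Its 2 further probes differed by -1.16 and -1.12 and so pointed the same way. SH2B3, an adaptor that restrains cytokine receptors, was at 0.22 and -0.77 in vec and at -1.91 and -1.61 in shpkp3-2, with a further probe at -0.68. SAMD5 and TCL1B, a co-activator of AKT, differed by -1.27 and -1.39.

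HKDC1, a hexokinase-like enzyme of glucose metabolism, was at -2.23 and -2.79 in vec and at -5.05 and -4.68 in shpkp3-2 (19.6% of vec). CPT1A, which loads fatty acids for entry into mitochondria, differed by -1.16, while a brighter further probe of it differed by -0.62. In the RNA processing group, CSTF2T, a polyadenylation factor paralog, was at 0.48 and -0.33 in vec and at -1.16 and -3.06 in shpkp3-2 (difference -2.19). Its brighter further probe differed by -0.07. ZC3H7B, a zinc finger protein, was at 0.02 and -1.05 in vec and at -2.30 and -2.76 in shpkp3-2 (difference -2.01). DHX8, a splicing helicase, and CCAR2, a coiled-coil regulator of transcription and splicing, differed by -1.07 and -1.08, and a further CCAR2 probe by -0.22. The germline genes TEX19 and MEIOB, a meiotic recombination factor, differed by -1.44 and -1.24. TEX19 was at 2.19 and 2.04 in vec and at 0.70 and 0.65 in shpkp3-2. FLJ22675, a transcript with no RefSeq match, was at -2.62 and -3.04 in vec and at -4.98 and -4.18 in shpkp3-2, and PROSER2 differed by -1.10, with a further probe at -0.74.

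In the group of traffic, transport and antigen loading, 6 members had differences from -1.49 to -1.14. TAPBP (tapasin), which holds MHC class I to the peptide transporter, was at 2.17 and 2.15 in vec and at 0.74 and 0.60 in shpkp3-2 (35.6% of vec). A far dimmer further probe, near -4, differed by -0.07. VPS4A, the ATPase that takes ESCRT-III apart, was at 3.56 and 3.64 in vec and at 2.51 and 2.40 in shpkp3-2 (difference -1.15). Its further probe was at -3.32 and -2.66 in vec and at -2.38 and -2.94 in shpkp3-2, a difference of 0.33. DENND5B, an exchange factor for Rab GTPases, had 3 probes that separated the clones, with differences of -1.37, -1.54 and -1.04. The brightest member probe was at -0.33 and -0.30 in vec and at -1.68 and -1.70 in shpkp3-2. RABEP1 (rabaptin 5), an effector of early endosomes, differed by -1.17, and its 3 further probes by -0.86, -0.84 and -0.43. APH1A, a subunit of γ-secretase, and MRS2, a mitochondrial magnesium channel, differed by -1.17 and -1.14, and a further APH1A probe by -0.74.

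Among cytoskeletal genes, VIM, the intermediate filament protein of mesenchymal cells, was dim, at -1.74 and -2.28 in vec and at -3.29 and -3.20 in shpkp3-2 (difference -1.24). A second VIM probe differed by -1.20. STMN3, a stathmin that binds tubulin, had the smallest fall of all members at -1.03, and was at 1.81 and 2.06 in vec and at 0.92 and 0.90 in shpkp3-2. Its further member probe differed by -1.12, and its brightest probe, at 6.02 and 6.36 in vec and at 5.38 and 5.29 in shpkp3-2, differed by -0.86 and did not meet the rule. EPB41L4A, a FERM domain protein, was at -1.39 and -1.63 in vec and at -2.90 and -2.60 in shpkp3-2, and differed by -1.24 and -1.32 on its member probes and by -0.40 on another. ACTN4, which cross-links actin, was at 1.20 and -0.31 in vec and at -1.43 and -1.0 in shpkp3-2. Its brighter further probe, at 2.25 and 1.18 in vec and at 1.05 and 1.61 in shpkp3-2, differed by -0.39, and on that probe the clones overlapped. Of 8 fibroblast markers 2 were detected on every array and 6 on none (COL1A2, COL3A1, DCN, LUM, FAP and PDGFRB), and their summed signal was 2.09 and 3.55 times the 75th percentile signal in vec and 1.97 and 2.13 times in shpkp3-2.

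The 5 genes of cell division differed by -1.73 to -1.10. FAM111B, a protease linked to DNA replication, was at -3.08 and -1.92 in vec and at -3.96 and -4.50 in shpkp3-2. PIMREG, a mitotic regulator, was bright, at 4.46 and 4.62 in vec and at 3.39 and 3.24 in shpkp3-2 (42.9% of vec). The kinesins KIF24 and KIF18A differed by -1.31 and -1.10, with a second KIF24 probe at -1.24. The difference of KIF18A was as small as -0.63 with an array left out. The brighter KIF24 probe was at -1.10 and -1.26 in vec and at -2.36 and -2.62 in shpkp3-2. The 31 other KIF genes tested had a median difference of -0.07, from -0.83 to 0.52. CCNJ, a cyclin, was the member nearest to the threshold.

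Globins, the oxygen-binding proteins, gave 4 members. HBG1 and HBG2, which encode the γ chains of fetal haemoglobin, were at 1.23 and 1.18, and at 0.50 and 0.34, in vec and at 0.00 and 0.04, and at -0.78 and -0.77, in shpkp3-2. Their 2 further member probes differed by -1.13 and -1.23, and the last HBG2 probe by -1.04. An HBG1 and an HBG2 probe share 38 of 39 overlapping bases and another such pair 42 of 49, so that signals of both genes may be mixed. HBA1, an α chain, was at -1.52 and -1.62 in vec and at -2.78 and -2.67 in shpkp3-2, and HBA2, which was not a member, was at -1.43 and -1.81 in vec and at -2.82 and -2.59 in shpkp3-2. HBA1 and HBA2 encode the same protein, and their signals may be mixed as well. The embryonic HBE1 was the brightest globin, and its 2 probes differed by -0.70 and -0.73 (limma adjusted p = 0.282 and 0.252). MB (myoglobin) was dim and less even, at -3.76 and -2.83 in vec and at -4.43 and -4.34 in shpkp3-2. Of 19 globin probes 14 were detected on all 4 arrays, and the 8 of them that were not members had differences from -1.08 to 0.36. The adult β chain gene HBB was well above background on none of the arrays.

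Of the calcium-binding members, S100A16 was at 3.89 and 3.95 in vec and at 2.70 and 2.69 in shpkp3-2 (difference -1.23), and S100A5 was at -1.25 and -1.19 in vec and at -2.58 and -2.69 in shpkp3-2 (difference -1.42). Both are EF-hand proteins of the S100 family. The 10 other S100 probes detected on all arrays had differences from -0.70 to 0.53, a range bounded by the rule that chose the members. S100A4, which is known from cell motility, was at 6.59 and 6.55 in vec and at 5.78 and 5.96 in shpkp3-2 (limma adjusted p = 0.234). CALB1, a calcium buffer, was dim and differed by -1.38.

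Further probes of the same genes were the only other readout of these transcripts in the data, and they come from the same arrays. A further probe well above background on all 4 arrays was present for 34 genes, 43 probes in all, with a median difference of -0.58. Of these, 12 had a difference of -1 or below before rounding and 5 were above 0. Only 4 of the 12 did not meet the rule, and the others lie there because the rule chose them. The median over the 43 includes these chosen probes, so nothing is read from it. In 8 genes at least 2 probes met the rule, namely BDNF, DENND5B, EPB41L4A, HBG1, HBG2, KIF24, STMN3 and VIM. The 35 further probes that did not meet the rule, of 30 genes, had a median difference of -0.40, and those above 0 belonged to GH2, SCARF2, VPS4A, TNXB and SCARA5. TNXB, the matrix protein tenascin X, was at 2.29 and 3.12 in vec and at 1.14 and 1.65 in shpkp3-2 on its member probe (difference -1.31), while the others differed by -0.17 and 0.08. Of the 35, 13 were brighter than the member probe of their gene, and these had a median of -0.56. Another 20 probes of the members were not well above background on every array and are not among the 43. For 28 of the 72 genes the array had 1 probe.

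**Figure D2:**
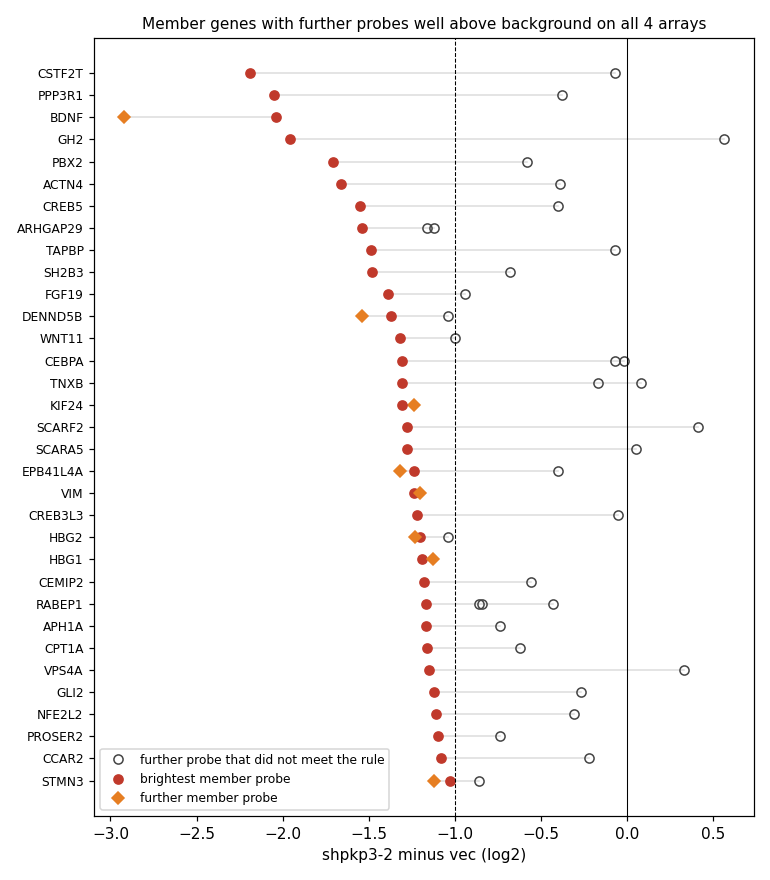
Difference between the clones (shpkp3-2 minus vec, log2) for each probe well above background on all 4 arrays, for 33 of the 34 member genes with more than 1 such probe; filled circles are the brightest member probe, diamonds further member probes and open circles probes that did not meet the rule. The probes of BDNF, DENND5B, ARHGAP29 and HBG1 lie together below -1, while those of CEBPA, VPS4A, SCARF2 and GH2 lie apart.

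Near the threshold, the shpkp3-2 array closest to vec lay -1.0 from the vec mean for CCNJ and SCARA5 and -1.01 for DPP4. CCNJ was at 0.69 and 0.71 in vec and at -0.30 and -0.69 in shpkp3-2, SCARA5 at -3.08 and -3.93 in vec and at -5.06 and -4.51 in shpkp3-2, and DPP4 at -2.59 and -2.58 in vec and at -3.96 and -3.60 in shpkp3-2. Just outside were a further HBG2 probe at -0.998, DLX2 at -0.988 and OLFM1 at -0.986. DLX2 was at -0.07 and -1.13 in vec and at -1.59 and -1.58 in shpkp3-2, OLFM1 at -1.18 and -1.91 in vec and at -3.08 and -2.53 in shpkp3-2, and the HBG2 probe at 0.62 and 0.57 in vec and at -0.48 and -0.40 in shpkp3-2. All 6 were lower on both shpkp3-2 arrays than on either vec array.

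The size of the fall in dim genes depended on the background correction. With normexp, which models each intensity as background plus signal and here adds an offset of 50, 34 of the 72 genes met the rule. The 38 others had a median vec level of -2.0 and a median difference of -0.70 after normexp, against -1.24 before it. FOXA2 moved from -2.34 to -0.81, HKDC1 from -2.35 to -0.75 and RSPO1 from -1.40 to -0.30. The 34 that met the rule were brighter, with a median vec level of 1.00, and their median difference was -1.34 after normexp against -1.43 before. RGS2 was at -2.05 after normexp, BDNF at -1.78, SUSD2 at -1.66, UTS2B at -1.56 and GCNT3 at -1.51. GH2 (-1.75), CSTF2T (-1.65) and PPP3R1 (-1.54) lay in this range as well.

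The genes of 15 lists chosen for this tissue and for PKP3 (markers of 6 cell types, desmosome, matrix, cytoskeletal regulators, axon guidance, xenobiotic metabolism, vesicle traffic, MAPK feedback, lipid metabolism and interferon response) were read in the same fit. Of 227 list genes tested, limma called 0 lower and 1 higher at an adjusted p under 0.05, and 14 lower and 30 higher at an unadjusted p under 0.05, beside 4.98% and 7.35% of all probes tested. The gene called higher was CD68, a lysosomal protein used as a leukocyte marker, at -1.74 and -1.81 in vec and at -0.35 and -0.34 in shpkp3-2. It was not called with quantile normalization. Of 7 leukocyte markers 5 were tested, and only CD68 was called, while PTPRC and LYZ were detected on no array. The median difference was -0.08 over 10 desmosome genes, -0.09 over 23 matrix genes, -0.06 over 32 cytoskeletal regulators and -0.27 over 25 genes of MAPK feedback, and it was 0.36 over 19 genes of the interferon response and 0.28 over 10 colon epithelium markers, beside 0.05 over the 14530 genes tested. The lists held ACTN4 and ARHGAP29 among the members.

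By gene order in RefSeq GRCh38.p14, BDNF and KIF18A are neighbours, as are HBG1 and HBG2. TNXB and PBX2, both on chromosome 6, have 8 genes between them, whose median difference was 0.12. CPT1A and FGF19 on chromosome 11 have 10 between them (7 tested, median -0.09), RABEP1 and PIMREG on chromosome 17 have 12 (8 tested, median 0.16), and BCL6 and UTS2B on chromosome 3 have 10 (6 tested, median 0.17). The lowest difference among the tested genes between these pairs was -0.58, and the others have no value here. S100A5 and S100A16 on chromosome 1 have 3 genes between them, which differed by -0.70 to 0.42.

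A promoter of 300 bases (250 before and 50 after the start of transcription) was listed in RefSeq GRCh38.p14 for 49 of the 72 genes. The 250 bases before the start are shown for RGS2, UTS2B and GCNT3, members that were called lower by limma and that met the rule after normexp. Capitals mark the CCAAT box (CCAAT) and the GC box (GGGCGG, here read on the other strand) in RGS2, and the GATA core (AGATAA, on the other strand in GCNT3) in UTS2B and GCNT3.
RGS2, chr1:192808789-192809038, strand plus: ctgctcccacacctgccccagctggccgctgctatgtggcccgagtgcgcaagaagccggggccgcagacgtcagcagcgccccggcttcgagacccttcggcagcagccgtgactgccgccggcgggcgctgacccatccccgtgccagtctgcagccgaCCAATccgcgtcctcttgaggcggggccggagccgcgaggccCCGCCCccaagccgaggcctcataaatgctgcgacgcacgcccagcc
UTS2B, chr3:191330527-191330776, strand minus: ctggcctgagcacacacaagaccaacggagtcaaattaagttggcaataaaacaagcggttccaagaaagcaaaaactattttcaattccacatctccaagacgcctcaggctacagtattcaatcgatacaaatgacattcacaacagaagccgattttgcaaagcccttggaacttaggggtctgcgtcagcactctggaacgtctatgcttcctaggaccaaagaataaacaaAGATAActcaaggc
GCNT3, chr15:59611533-59611782, strand plus: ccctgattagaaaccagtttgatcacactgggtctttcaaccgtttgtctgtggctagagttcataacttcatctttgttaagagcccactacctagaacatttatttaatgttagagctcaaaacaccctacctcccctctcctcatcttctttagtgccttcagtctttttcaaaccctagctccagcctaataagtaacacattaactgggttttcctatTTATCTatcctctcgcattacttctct

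Searched on both strands, the GC box was present in 34 of the 49 member promoters (69.4%), beside 44.6% of the 27305 promoters in the table and 68.2% of the 10809 whose gene was well above background on all 4 arrays. The CCAAT box was present in 15 (30.6%, beside 35.7% of all and 36.8% of those detected), the GATA core in 6 (12.2%, beside 10.5% and 5.25%), and the TATA box TATAAA in 2 (4.08%, beside 12% and 6.45%), CEBPA and CREB5. The forkhead core TGTTTAC was in the promoters of BDNF and DHX8 (4.08%, beside 3.41% of all and 2.23% of those detected), and the full cAMP response element TGACGTCA was in 0 of the 49 (beside 1.98% and 3.09%). A match is a description of the letters in this window. The median G and C content was 65.3% for the members and 58.3% for the whole table. No value is given for the promoters of detected genes, so nothing is read from this difference.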

How the data were processed

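RNA of the vec and shpkp3-2 clones was hybridized by the authors to 4 one-color Agilent arrays and read with Agilent Feature Extraction (version 9.1 per the labels, 10.7.3.1 per the file headers). The deposited intensity, the processed signal, is background subtracted and detrended by the software, with low signals replaced by surrogates and no scaling between arrays. The deposited tables also hold 0 or 1 flags of the software. From these, log2 values minus the array's 75th percentile over 51538 spots were computed, spots with the non-uniformity flag (26 to 39 per array) were left out, and spots of a probe were averaged. Probes were named through RefSeq GRCh38.p14 by accession (28933), symbol (2739) or older symbol (1130), and 17436 kept the file's name. FLJ22675 was unmatched, and 10 member probes took a newer symbol (the files name UTS2B as UTS2D, TEX19 as FLJ35767, DENND5B as MGC24039, PIMREG as FAM64A, PROSER2 as C10orf47, CEMIP2 as TMEM2, CCAR2 as KIAA1967, MEIOB as C16orf73 and MRS2 as MRS2L). The brightest member probe stood for a gene.

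limma 3.58.1 in R 4.3.3 (lmFit, eBayes, no covariates, Benjamini-Hochberg) was fitted over 30512 probes. On simulated arrays of this comparison it recovered 30 of 100 probes changed by 1 and 100 of 100 changed by 3 on the log2 scale, with 20 false calls. The design text pairs arrays by RNA collection, and deviations of same-numbered arrays correlated at -0.199 over the probes. Precision is limited by the number of arrays.

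The genes given with values on every array were the 25 with the largest mean fall, the 5 with the highest vec level beyond these, 3 on each side of the threshold, and those with further member probes or a probe of another direction, members on their brightest member probe. Other members were given by function. Of the 72 genes, 2 are in the counts but not reported here. RSPO1, FGF19, WNT11, BCL6, RGS5, TEX19, S100A5, HBA1 and MB were added after their values were seen. The members, the lists and the function groups were chosen with earlier results of these data known. The alternatives were normexp, quantile normalization, median centring, outlier spots kept, other detection filters and thresholds, each array left out, the block and another prior. Python 3.11.15, pandas 2.3.3 and numpy 2.4.6 were used.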

Additional observations from a re-analysis of the deposited data

How the results depend on the processing

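The 72 genes that met the rule became 34 with normexp background correction, 137 with the weaker detection flag (positive and significant), 407 at a 1.5-fold threshold and 40 against each single vec array. The looser settings hold the 72 by construction. With an array left out the number was 82 to 193 (82 without vec 1, 120 without shpkp3-2 1, 193 without vec 2 and 186 without shpkp3-2 2), with 47 of the 72 among those without vec 1, 66 without vec 2 and 72 without either shpkp3-2 array. Within each RNA collection (a replicate block) it was 50, of which 47 were among the 72. Any probe of a gene counts here, while the 44 and 39 genes given in the Results were read on the brightest member probe. The probes limma called lower, 44 as reported, were 70 with normexp, 8 with no filter on detection, 21 for probes well above background on all 4 arrays, 338 with the replicate block, and 55 to 152 with an array left out (142 without vec 1, 152 without vec 2 and 76 without shpkp3-2 2). Those called higher, 75 as reported, were 120 with normexp, 42 with quantile normalization, 10 with no filter, 25 for probes well above background on all 4 arrays, 503 with the replicate block, 114 with a trended and robust prior, and 106 to 243 with an array left out (171 without vec 1, 243 without shpkp3-2 1 and 220 without shpkp3-2 2). The members called lower, 12 as reported, were 30 with normexp, 20 with median centring and 25 with the other prior. Over all probes, 59 were called lower with median centring and 59 with that prior. With the replicate block 72 members were called lower, and with no filter 0. A crossed pairing of the arrays, chosen after seeing the data, gave 40 probes lower, 64 higher and 8 members. The median difference of the members, -1.32, was -1.01 with normexp and -1.50 to -1.23 with an array left out. List genes called lower and higher, 0 and 1 as reported, were 1 and 5 with normexp, 0 and 0 with quantile normalization, 1 and 2 with median centring, 5 and 10 with the replicate block, and 1 to 1 and 1 to 4 with an array left out. For the 41 member genes picked by rule for naming, 369 alternative values were read, and genes added later are not among them. Of these values, 323 moved by less than the spread between arrays, 45 by more, and 1 changed sign. The last was GH2, at 0.04 without vec 2 (-3.95 without vec 1). Leaving out 1 of the 2 arrays of a clone moves its mean within their spread by construction. A mean over detected probes leaves a gene with 1 such probe unchanged, so nothing is read from the 323. With an array left out, the lone array of a clone is assumed to vary like the others, and the cause of these changes was not tested. Normexp with an offset compresses low signals by construction.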
